A study of Mus musculus with 33 samples.

Results

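The genes described here are 39 mitosis and spindle checkpoint genes, chosen as the rows with those symbols in a table of 37973 genes, and measured by polyA RNA sequencing in mouse embryonic fibroblasts (MEFs) on the way to pluripotency. All 39 symbols matched a single row. Levels are FPKM, fragments per kilobase of transcript scaled to the mapped fragments of a library, and differences are on the scale of log2(FPKM + 1). All 39 genes had at least 1 FPKM in each of 32 libraries, so none was lost to the filter on low values, and 30 had at least 5 FPKM in each.

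Entry into mitosis is driven by the kinase CDK1 with cyclin A or B, which the CDC25 phosphatases switch on. Polo and Aurora kinases, kinetochores and motor proteins then build the spindle, and the spindle checkpoint holds back CDC20 and the anaphase-promoting complex until every kinetochore is attached. Most of these genes are transcribed in G2 and M phase through the MuvB complex with B-MYB (encoded by Mybl2) and FOXM1, so their RNA in a cell population is widely read as a sign of cycling cells. Pluripotent stem cells are known for a short cell cycle, and MEFs in culture for slowing and senescence.

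The cells were primary MEFs from embryos of 14 to 15 days post coitum, transduced with lentivirus and given doxycycline at 1 ug/ml. The Dppa2/4 arm overexpressed Dppa2 and Dppa4, paired DNA-binding factors found in pluripotent cells and the germ line; the control arm carried a control overexpression. Both arms had the genotype Col1a1-OSKM+/-; Rosa26-rtTA+/-; Oct4-GFP+/-, in which doxycycline acts through rtTA, at the Rosa26 locus, to switch on Pou5f1, Klf4, Sox2 and Myc, and they were sorted on days 2, 4, 8, 11 and 14 into Thy1+SSEA1-, Thy1+SSEA1+ (Dppa2/4 arm alone), Thy1-SSEA1-, Thy1-SSEA1+ and GFP+ cells. By their titles, the Thy1 and SSEA1 gates of days 8, 11 and 14 were sorted as GFP-negative, while titles of days 2 and 4 name no GFP sort. Changes over days within such a gate join both kinds. In addition, 1 library per arm came from cells of the genotype Rosa26-rtTA+/-; Oct4-GFP+/-, titled rtTA-MEF, day 2. The strains are crosses of B6;129S4 and B6.Cg lines, how many embryos went into a culture is not stated, and doxycycline was common to all groups.

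There were 17 Dppa2/4 and 13 control libraries of OSKM cells, with 1 library per arm, day and gate. Repeats of a comparison are therefore days and gates, and p-values measure the spread between those. Depth worked back from the values, to 3 digits, was 21800000 to 44100000 fragments in OSKM libraries and 14200000 and 16400000 in the rtTA-MEF libraries. Markers separated the GFP+ gate from the Thy1+SSEA1- gate: 9 fibroblast markers summed to 31.1 to 92.5 FPKM in the first and 659 to 2625 FPKM in the second. The same sum was 775 to 6476 FPKM in Thy1-SSEA1- cells, so its range did not tell this gate from Thy1+SSEA1-. The 9 pluripotency markers summed to 4540 to 7416 FPKM (GFP+), 133 to 527 FPKM (Thy1+SSEA1-) and 77.0 to 461 FPKM (Thy1-SSEA1-) in those gates. The library labelled Dppa2/4 day 4 Thy1+SSEA1- had 0.354 FPKM of Dppa2, against 171 to 599 FPKM in the other Dppa2/4 libraries of its gate and 0.149 to 0.527 FPKM in control, and the comparisons, gate means and correlations that use it are also given without it. In GFP+ cells the arms overlapped in Dppa2, at 49.3 to 61.5 FPKM in Dppa2/4 and 45.5 to 66.1 FPKM in control. The control library titled day 11 GFP+ is described in GEO as GFP-negative Thy1-SSEA1+, and it was used by its title.

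Promoters of genes of this kind often carry CCAAT boxes, bound by NF-Y, and a cell cycle homology element (CHR), bound by the MuvB complex. RefSeq promoter windows of 300 bases (250 before to 50 after the start, GRCm38.p6) matched 32 of the 39 genes, and 7 are named only (Ccna2, Cdc25c, Aurkb, Incenp, Kif20a, Tpx2 and Foxm1). For 2 genes with 2 windows each, the window of lower coordinate was used, and RefSeq and GENCODE starts can differ. CCAAT, on either strand, was in 24 of 32 windows (75.0%) and in 37.4% of all 32851 windows of the table. The CHR word TTTGAA on either strand was in 20 windows (62.5%), against 17.9% of all windows. A palindromic variant of it, TTTAAA, was in 9 (28.1%), against 13.2%. A CCAAT box together with either CHR word was in 20 windows (62.5%), against 10.7% of all. These are matches of letters, not sites shown to be bound. The windows of Cdk1, Ccnb1, Cdc20 and Plk1, which moved together in these libraries, are shown with CCAAT boxes and both CHR words (either strand) in capitals, beside those of Mybl2, which had the widest range, and Cdc25b, which followed the others least. Cdk1 lies at chr10:69352863-69353162 (minus strand), Ccnb1 at chr13:100786437-100786736 (minus), Cdc20 at chr4:118437294-118437593 (minus), Plk1 at chr7:122159185-122159484 (plus), Mybl2 at chr2:163054385-163054684 (plus) and Cdc25b at chr2:131186698-131186997 (plus).
Cdk1: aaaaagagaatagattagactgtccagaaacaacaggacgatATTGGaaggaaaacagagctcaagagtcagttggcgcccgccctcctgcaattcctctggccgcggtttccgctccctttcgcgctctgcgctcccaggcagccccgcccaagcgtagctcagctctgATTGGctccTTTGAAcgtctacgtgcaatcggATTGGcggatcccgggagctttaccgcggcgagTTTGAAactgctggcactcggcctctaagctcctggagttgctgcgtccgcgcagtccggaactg
Ccnb1: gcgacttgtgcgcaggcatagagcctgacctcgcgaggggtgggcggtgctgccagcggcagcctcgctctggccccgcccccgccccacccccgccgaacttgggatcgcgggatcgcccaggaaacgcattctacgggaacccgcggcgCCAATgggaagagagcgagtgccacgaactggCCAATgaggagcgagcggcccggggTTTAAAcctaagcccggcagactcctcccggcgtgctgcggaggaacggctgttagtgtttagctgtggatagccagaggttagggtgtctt
Cdc20: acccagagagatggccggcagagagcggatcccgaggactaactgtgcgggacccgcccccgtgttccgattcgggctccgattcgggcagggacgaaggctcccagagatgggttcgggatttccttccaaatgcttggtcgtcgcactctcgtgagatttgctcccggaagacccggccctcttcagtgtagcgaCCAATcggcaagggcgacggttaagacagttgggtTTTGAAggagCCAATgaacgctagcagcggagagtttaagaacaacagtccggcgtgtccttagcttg
Plk1: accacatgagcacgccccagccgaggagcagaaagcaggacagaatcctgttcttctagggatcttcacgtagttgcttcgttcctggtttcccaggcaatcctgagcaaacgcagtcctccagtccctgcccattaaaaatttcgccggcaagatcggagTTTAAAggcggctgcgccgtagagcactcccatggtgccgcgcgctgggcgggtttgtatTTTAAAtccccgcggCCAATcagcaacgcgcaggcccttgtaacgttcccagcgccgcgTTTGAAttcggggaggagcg
Mybl2: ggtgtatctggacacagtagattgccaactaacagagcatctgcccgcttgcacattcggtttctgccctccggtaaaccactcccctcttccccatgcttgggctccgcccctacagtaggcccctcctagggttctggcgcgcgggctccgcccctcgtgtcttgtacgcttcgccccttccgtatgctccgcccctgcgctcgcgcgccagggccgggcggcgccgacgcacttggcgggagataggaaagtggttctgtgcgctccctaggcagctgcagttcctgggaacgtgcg
Cdc25b: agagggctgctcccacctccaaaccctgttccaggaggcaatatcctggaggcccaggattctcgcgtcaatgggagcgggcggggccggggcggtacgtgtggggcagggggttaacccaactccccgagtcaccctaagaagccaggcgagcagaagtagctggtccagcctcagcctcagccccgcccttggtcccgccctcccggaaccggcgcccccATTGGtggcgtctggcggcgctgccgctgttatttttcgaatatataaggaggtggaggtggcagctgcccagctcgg
The Mybl2 window held none of the 3 words and the Cdc25b window held a CCAAT box alone, while each of the other 4 held at least 1 CCAAT box and at least 1 CHR word. The other windows do not follow such a divide. Those of Mad2l1 and Nusap1, which moved with the other genes, held none of the 3 words, and that of Kif2c held no CCAAT box. Those of Bub3 and Mki67, among the genes that followed the others least, held both kinds. The Kif2c window (117178723 to 117179022, minus strand) lies inside the gene by GENCODE, which starts it at 117182639. The Mad2l1 window (plus strand) ends at 66535270, before the GENCODE start at 66535390.

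The level of the 39 genes followed the sort gate. Their mean log2(FPKM + 1) was highest in GFP+ cells, at 6.22 to 6.42 over 5 libraries (mean 6.32 ± 0.08, SD), and next in Thy1-SSEA1+ cells, at 5.69 to 6.24 over 6 libraries (5.94 ± 0.20). It was 5.46 and 5.74 in the 2 Thy1+SSEA1+ libraries, of days 2 and 4. In the Dppa2/4 and control rtTA-MEF libraries, of day 2, it was 5.43 and 5.55. Over all days sampled, the lowest gates were Thy1-SSEA1-, at 4.25 to 5.40 over 9 libraries (4.88 ± 0.42), and Thy1+SSEA1-, at 3.85 to 5.68 over 8 (4.77 ± 0.68). The gates cover different days, so this order mixes gate and day. On day 2 alone, Thy1+SSEA1- stood at 5.35 in Dppa2/4 and 5.68 in control, and Thy1-SSEA1- at 4.40 and 4.59. On day 4, Thy1+SSEA1- stood at 3.85 and 5.11. Without the library labelled Dppa2/4 day 4, the Thy1+SSEA1- gate stood at 4.06 to 5.68 over 7 (4.90 ± 0.61), level with Thy1-SSEA1-. The top gates overlapped by 1 library: the lowest GFP+ library stood at 6.22, and control day 8 Thy1-SSEA1+ at 6.24. The Thy1-SSEA1- and Thy1+SSEA1- gates overlapped over most of their range. In sorted bulk RNA, fewer cycling cells and less of this RNA per cell cannot be told apart.

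**Figure D1:**
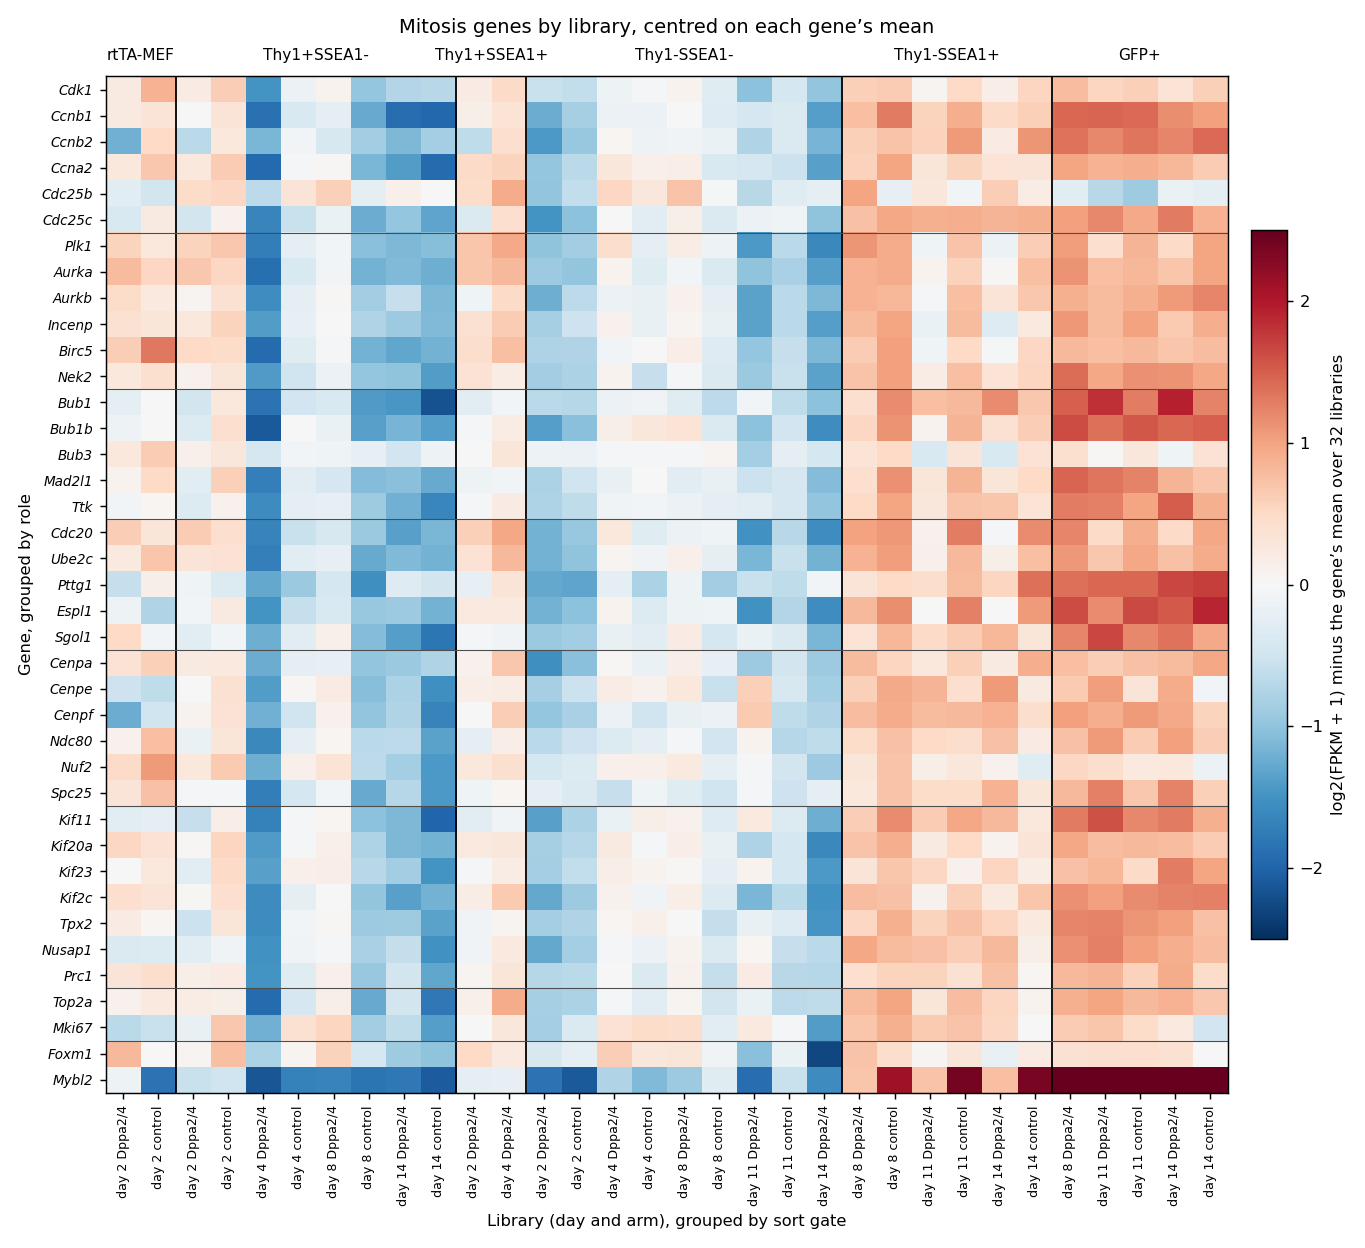
Heat map of the 39 genes (rows, grouped by role) in 32 libraries (columns, by sort gate, then day, then arm). Colour is log2(FPKM + 1) minus the gene's mean over the libraries, with the scale ending at 2.5 either way. The GFP+ and Thy1-SSEA1+ columns are high for most rows, the column of the library labelled Dppa2/4 day 4 Thy1+SSEA1- is low. Cdc25b does not follow the other rows over all gates, and Bub3 has a narrower range of colour.

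**Figure D2:**
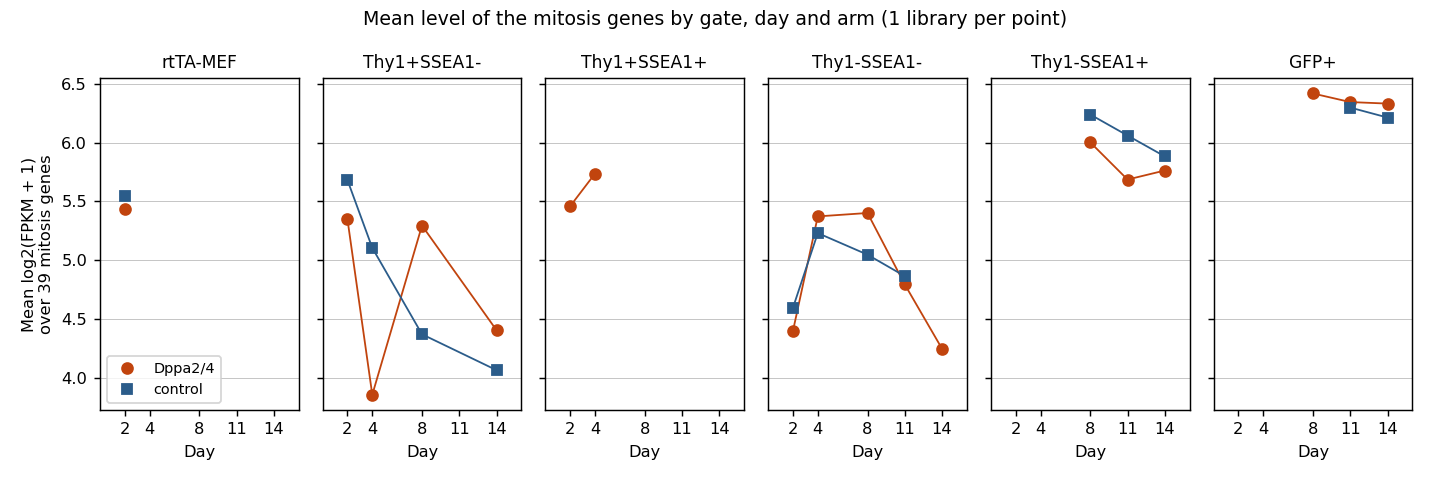
Mean log2(FPKM + 1) over the 39 genes (vertical axis) by day (horizontal axis), 1 panel per gate, with Dppa2/4 as circles and control as squares. Each point is 1 library. GFP+ points lie between 6.22 and 6.42, and Thy1+SSEA1- control points are lower on each later day sampled. Lines join the days of an arm.

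In Thy1-SSEA1+ cells against Thy1-SSEA1- cells of the same arm and day (5 pairs), 35 of 39 genes were higher, none lower, and all 39 differences were positive (limma, Benjamini-Hochberg adjusted p below 0.05). Of all 15249 genes tested, 21.9% were called, 9.55% higher and 12.4% lower. The median difference of the 39 genes was 1.06, against 0.01 over all genes tested. The 4 genes that did not pass were Bub3, Cdc25b, Nuf2 and Kif23, at 0.38, 0.44, 0.60 and 0.83. In these 5 pairs the mean log2(FPKM + 1) of the 9 fibroblast markers was 2.915 to 5.012 in Thy1-SSEA1+ and 5.847 to 6.85 in Thy1-SSEA1- libraries. That of the 9 pluripotency markers was 4.341 to 6.596 and 3.048 to 3.981. The part of these markers in the result was not tested.

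Among CDK1 and its regulators, 5 of 6 were higher. Ccnb1 encodes cyclin B1, the main mitotic partner of CDK1 (ENSMUSG00000041431, GRCm38 chromosome 13, 100778650 to 100786570, minus strand). It had 118, 103 and 97.6 FPKM in Dppa2/4 Thy1-SSEA1+ cells of days 8, 11 and 14 and 174 and 132 FPKM in control Thy1-SSEA1+ cells of days 8 and 11, against 70.8, 52.1 and 26.1 FPKM (Dppa2/4) and 55.5 and 54.4 FPKM (control) in the matched Thy1-SSEA1- cells. Every Thy1-SSEA1+ value lay above every Thy1-SSEA1- value, and the difference was 1.29 (SE 0.19, limma adjusted p = 0.0072). Cdk1 itself averaged 311 ± 52.8 FPKM in Thy1-SSEA1+ and 169 ± 55.4 FPKM in Thy1-SSEA1- cells (SD, n = 5 each), a smaller difference of 0.92 (limma adjusted p = 0.0071). Cdc25c, an activator of CDK1, averaged 30.8 ± 1.98 FPKM in Thy1-SSEA1+ and 13.7 ± 3.95 FPKM in Thy1-SSEA1- cells, and these did not overlap.

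All 6 mitotic kinase and passenger complex genes were higher in Thy1-SSEA1+ cells, by 0.97 (Birc5, or survivin) to 1.25 (Nek2, a centrosome kinase). Plk1, the polo kinase of mitotic entry and spindle assembly, had 64.4, 27.2 and 26.7 FPKM in Dppa2/4 and 57.5 and 49.3 FPKM in control Thy1-SSEA1+ cells, against 33.7, 10.3 and 9.01 FPKM in Dppa2/4 and 27.1 and 18.1 FPKM in control Thy1-SSEA1- cells. It was higher in every pair, although day 11 and 14 Dppa2/4 values of the first gate overlapped the day 8 values of the second, and the difference was 1.23 (SE 0.13, limma adjusted p = 0.0047). Without the pair as a block, Plk1 and Bub1b had the same differences and did not pass (limma adjusted p = 0.085 and 0.053).

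Of the 5 spindle checkpoint genes, 4 were higher. Bub1, a kinetochore kinase that recruits the checkpoint, averaged 45.2 ± 10.0 FPKM in Thy1-SSEA1+ and 16.5 ± 4.40 FPKM in Thy1-SSEA1- cells (n = 5 each), a difference of 1.41 (SE 0.24, limma adjusted p = 0.011) with no overlap. Mad2l1, the MAD2 protein that binds CDC20, averaged 105 ± 29.5 and 48.0 ± 10.9 FPKM in those gates. Bub3, which carries BUB1 and BUBR1 to kinetochores, averaged 68.7 ± 19.4 and 52.0 ± 12.4 FPKM, and its difference of 0.38 did not pass (limma adjusted p = 0.064).

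All 5 genes of the anaphase trigger were higher in Thy1-SSEA1+ cells. Cdc20, the activator of the anaphase-promoting complex and the target of the checkpoint, had 283, 152 and 137 FPKM in Dppa2/4 and 301 and 342 FPKM in control Thy1-SSEA1+ cells, against 127, 48.4 and 47.2 FPKM in Dppa2/4 and 131 and 86.4 FPKM in control Thy1-SSEA1- cells. The gates did not overlap, and the difference of 1.49 (SE 0.15, limma adjusted p = 0.0046) was the second largest among the 39 genes. Espl1, the separase that cuts cohesin, differed by 1.44, and Pttg1, the securin that holds separase back, by 0.97.

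Differences were smaller for centromere and kinetochore genes (5 of 6 higher, 0.60 for Nuf2 to 1.04 for Cenpf) and similar for spindle motors and microtubule proteins (6 of 7 higher, 0.83 for Kif23 to 1.20 for Kif2c, a microtubule depolymerase). Top2a, the topoisomerase that untangles chromosomes, averaged 216 ± 38.1 FPKM in Thy1-SSEA1+ and 104 ± 23.8 FPKM in Thy1-SSEA1- cells, and Mki67, the Ki-67 antigen, 44.0 ± 4.20 and 25.2 ± 10.3 FPKM.

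Both transcription factors were higher in Thy1-SSEA1+ cells. Mybl2 (ENSMUSG00000017861, GRCm38 chromosome 2, 163054687 to 163084688, plus strand) had 75.6, 76.3 and 78.7 FPKM in Dppa2/4 and 204 and 246 FPKM in control Thy1-SSEA1+ cells, against 24.3, 11.6 and 14.8 FPKM in Dppa2/4 and 37.3 and 31.2 FPKM in control Thy1-SSEA1- cells. The gates did not overlap, and its difference of 2.38 (SE 0.20, limma adjusted p = 0.0040) was the largest of the 39 genes. Foxm1 averaged 33.3 ± 8.04 FPKM in Thy1-SSEA1+ and 19.9 ± 11.2 FPKM in Thy1-SSEA1- cells, a difference of 0.92 with an adjusted p of 0.0497 by limma. Without the control day 11 pair, 22 of the 39 genes passed, where 8.37% of all 15013 genes tested were called.

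Against Thy1+SSEA1- cells (4 pairs), Thy1-SSEA1+ cells had 35 of 39 genes higher and none lower, in a background of 24.1% called among 15196 genes, 10.6% higher and 13.5% lower. The median difference was 1.46, against -0.04 over all genes tested. This comparison shares its Thy1-SSEA1+ libraries with the previous one. Mybl2 had 75.6 and 78.7 FPKM in Dppa2/4 and 204 and 243 FPKM in control Thy1-SSEA1+ cells of days 8 and 14, against 13.8 and 12.7 FPKM in Dppa2/4 and 12.4 and 10.2 FPKM in control Thy1+SSEA1- cells, a 12.3-fold ratio of means and a difference of 3.33 (SE 0.39, limma adjusted p = 0.010). Bub1 differed by 2.22, Ccnb1 by 2.12 (124 ± 34.2 and 30.7 ± 19.5 FPKM, n = 4 each), Cdc25c by 1.78 and Cdc20 by 1.77. Cdc25b, Bub3, Foxm1 and Nuf2 did not pass, at 0.27, 0.43, 0.73 and 0.86. At an unadjusted p below 0.05, 38 of the 39 passed, as did 41.6% of all genes. With all genes kept, limma called none of the 26160 genes tested, and without the control day 8 or day 14 pair 14 or 13 of the 39 passed. Of all genes tested, 7.44% and 6.9% were called without those pairs.

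**Figure D3:**
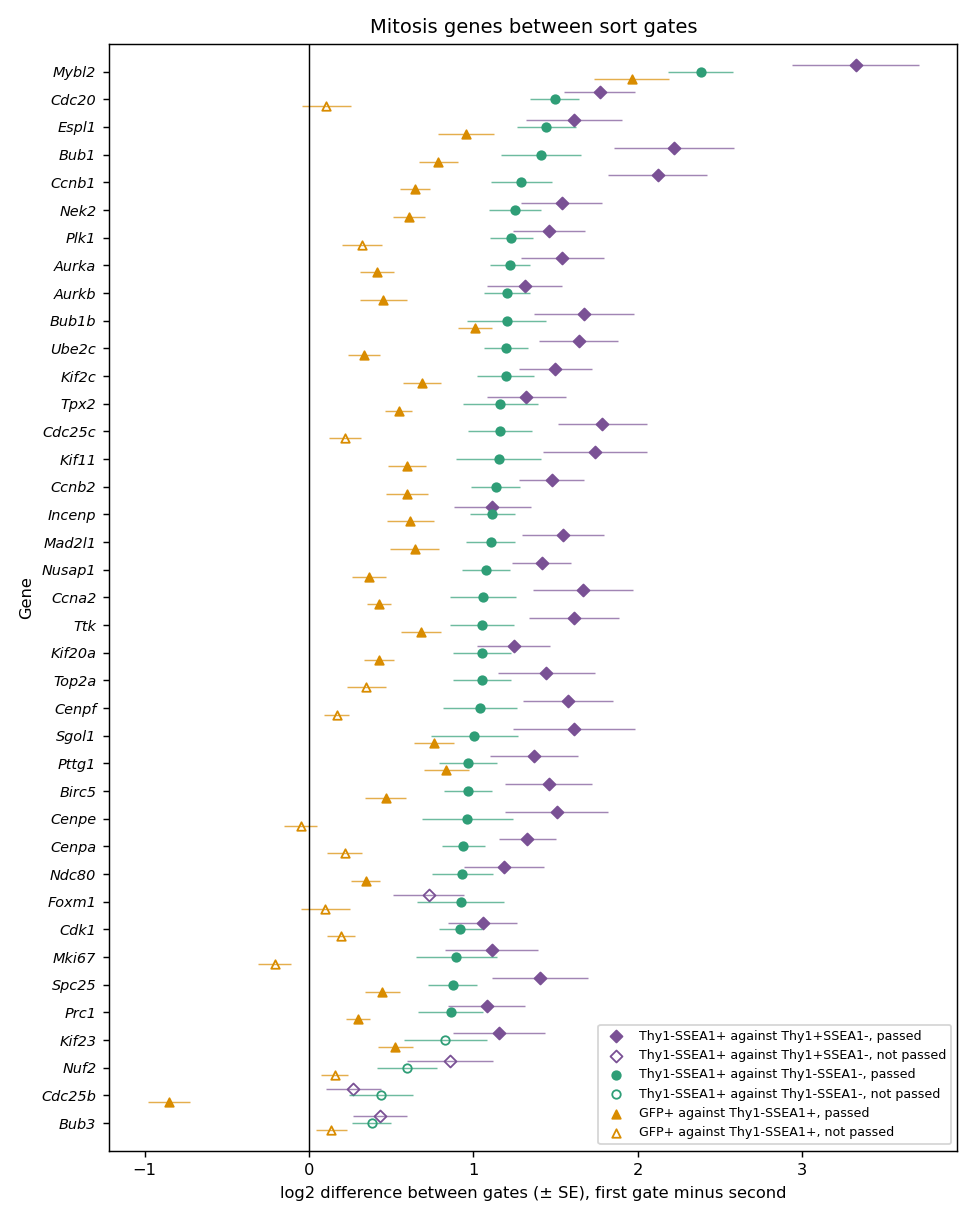
Difference of each of the 39 genes between gates, in log2(FPKM + 1) with its SE (horizontal axis), for 3 comparisons; filled symbols passed at an adjusted p below 0.05 and open ones did not. Mybl2 is farthest right in each comparison, and Cdc25b is below 0 in GFP+ against Thy1-SSEA1+ cells, at -0.85.

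Other genes of the pathway, from lists of general knowledge, behaved by group in Thy1-SSEA1+ against Thy1-SSEA1- cells. Of 22 other spindle and cytokinesis genes, 19 were higher and none lower (median 1.02), for example Kif18b, a kinesin (17.7 and 6.94 FPKM), and Cit, the citron kinase of the midbody (14.2 and 5.92 FPKM). DNA replication genes were higher in 15 of 18 (median 1.06), led by Mcm5 of the replicative helicase (83.7 and 30.7 FPKM). Other kinetochore genes were higher in 18 of 27, other CDK1 regulators in 8 of 11, other checkpoint genes in 6 of 10 and cohesin and condensin genes in 5 of 13. In contrast, 4 of 17 genes of the anaphase-promoting complex and its regulators were higher, among them Fbxo5, its inhibitor EMI1 (37.8 and 13.3 FPKM), and 1 of 15 genes of the MuvB, E2F and pocket protein group, Tfdp1. Of 6 cell cycle inhibitors tested, 3 were lower and none higher, with Cdkn2b, the p15 inhibitor of CDK4 and CDK6, at 22.7 and 55.1 FPKM.

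GFP+ cells against Thy1-SSEA1+ cells (5 pairs) had 26 of 39 genes higher and 1 lower, where 45.4% of 15347 genes were called, 19.5% higher and 25.9% lower. At an unadjusted p below 0.05, 29 of the 39 passed, as did 53.9% of all genes. The median difference was 0.43, against -0.06 over all genes. Mybl2 had 429, 435 and 378 FPKM in Dppa2/4 GFP+ cells of days 8, 11 and 14 and 593 and 604 FPKM in control GFP+ cells of days 11 and 14, against 75.6, 76.3 and 78.7 FPKM (Dppa2/4) and 246 and 243 FPKM (control) in Thy1-SSEA1+ cells. The gates did not overlap, and the difference was 1.96 (SE 0.23, limma adjusted p = 0.0018). Bub1b, the checkpoint protein BUBR1, had 201, 168 and 174 FPKM in Dppa2/4 and 189 and 182 FPKM in control GFP+ cells, against 92.1, 67.9 and 83.0 FPKM in Dppa2/4 and 116 and 98.8 FPKM in control Thy1-SSEA1+ cells, a difference of 1.01 (SE 0.10, limma adjusted p = 0.0013) without overlap.

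By role, the spindle motor group passed in full (7 of 7, 0.30 to 0.69), and checkpoint (4 of 5), anaphase trigger (4 of 5) and kinase and passenger genes (5 of 6) mostly did. Centromere and kinetochore genes passed in 2 of 6, Spc25 and Ndc80. Cdc20 averaged 253 ± 56.3 FPKM in GFP+ and 247 ± 96.1 FPKM in Thy1-SSEA1+ cells (n = 5 each), a difference of 0.11 (SE 0.15) that did not pass. Mki67 averaged 34.8 ± 10.1 and 39.4 ± 7.30 FPKM in those gates (-0.21, SE 0.10, limma adjusted p = 0.13). Top2a and Cdk1 were at 0.35 and 0.20 and did not pass.

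Cdc25b, the phosphatase that starts CDK1 activation at the centrosome (ENSMUSG00000027330, GRCm38 chromosome 2, 131186949 to 131198497, plus strand), was the 1 gene lower in GFP+ cells. It had 18.4, 13.4 and 19.9 FPKM in Dppa2/4 and 11.6 and 18.7 FPKM in control GFP+ cells, against 45.4, 27.3 and 34.9 FPKM in Dppa2/4 and 21.4 and 25.6 FPKM in control Thy1-SSEA1+ cells. The 5 GFP+ values lay below all 5 others, and the difference was -0.85 (SE 0.13, limma adjusted p = 0.0035). The same pairs had 16 of 18 DNA replication genes higher (median 0.92), with Gins1, a helicase subunit, at 55.8 and 25.4 FPKM, and 5 of 6 cell cycle inhibitors lower, with Cdkn2a, the Ink4a/Arf locus, at 12.7 and 40.9 FPKM. Without the pair as a block, 17 of the 39 genes were higher, and 1 lower, where 26.1% of all genes were called.

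**Figure D4:**
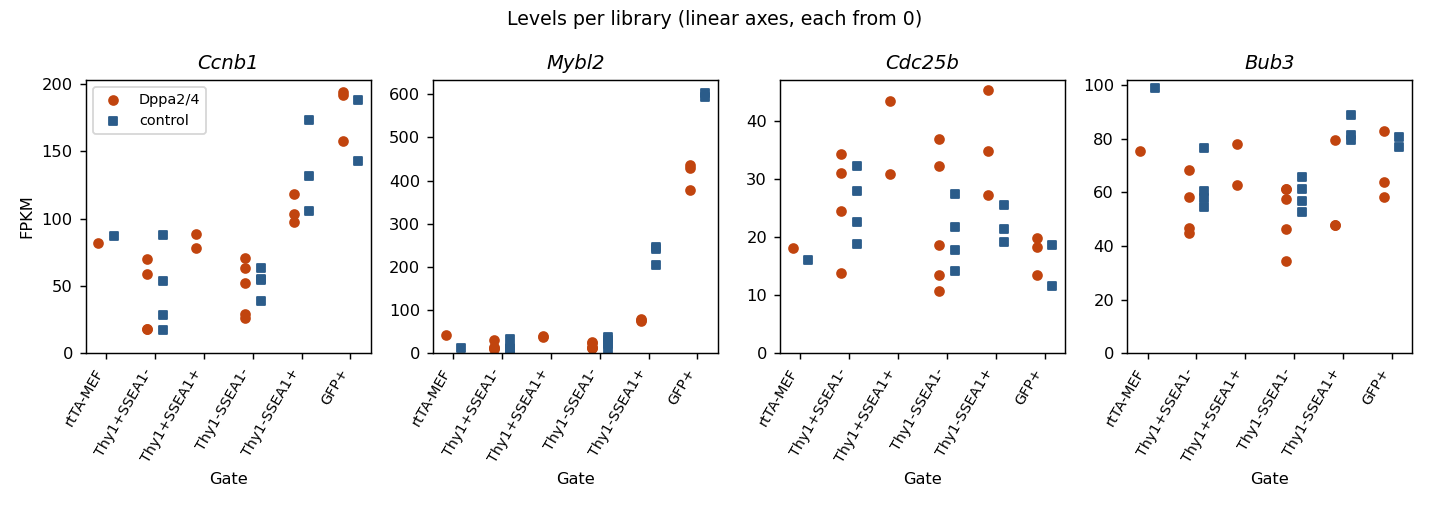
FPKM of Ccnb1, Mybl2, Cdc25b and Bub3 (vertical axes, each from 0) in every library by gate, with Dppa2/4 as circles left of control as squares. Ccnb1 and Mybl2 are highest in GFP+ cells, Cdc25b is lower there than in Thy1-SSEA1+ cells, and Mybl2 is lower in Dppa2/4 than in control within Thy1-SSEA1+ and within GFP+ cells.

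Across all 32 libraries, each gene was set against the mean of the other 38 as a description. The correlation was at least 0.9 for 28 genes and below 0.8 for 5, and the libraries share gates and days. It was highest for Ccnb1 (0.98), Nek2 (0.98), Kif2c, Bub1b and Ttk (each 0.97), and lowest for Cdc25b (0.18), Bub3 (0.64), Foxm1 (0.71), Mki67 (0.75) and Nuf2 (0.78). Within the 8 Thy1+SSEA1- libraries Cdc25b correlated with the others at 0.89 and within the 9 Thy1-SSEA1- libraries at 0.82, while within the 6 Thy1-SSEA1+ libraries it stood at -0.48. Bub3 correlated at 0.81, 0.44 and 0.86 within those 3 gates. Without the library labelled Dppa2/4 day 4, 25 of the 39 genes reached 0.9 over 31 libraries, the same 5 were lowest (Cdc25b at 0.10, Bub3 at 0.61), and Cdc25b stood at 0.87 within Thy1+SSEA1-.

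Dppa2/4 against control, with day and gate as a block (13 pairs), changed few of the 39 genes: none was higher and 2 were lower, where 23.4% of 16835 genes were called, 15.6% higher and 7.75% lower. At an unadjusted p below 0.05, 5 of the 39 passed, as did 37.3% of all genes. The median difference of the 39 genes was -0.04, against 0.03 over all genes tested. Single days and gates went different ways: all 39 genes were lower in the library labelled Dppa2/4 day 4 Thy1+SSEA1- than in its control (mean difference -1.25), and all 39 were higher in Dppa2/4 than in control on day 8 of the same gate (0.93). Without the day 4 Thy1+SSEA1- stratum, 2 genes were higher (Prc1, a midzone microtubule bundler, by 0.44, and Cenpe, a kinetochore motor, by 0.49), 1 was lower (Bub3), and the median was 0.04. In that fit 25.1% of all 16771 genes tested were called.

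Bub3 (ENSMUSG00000066979, GRCm38 chromosome 7, 131560222 to 131571895, plus strand) had a lowest, median and highest level of 34.5, 58.2 and 79.6 FPKM in the 13 Dppa2/4 libraries, and of 52.7, 65.7 and 88.9 FPKM in the 13 control libraries. The arms overlapped, but Dppa2/4 was lower in 11 of 13 strata, by 0.29 (SE 0.08, limma adjusted p = 0.017). In Thy1-SSEA1+ cells of days 8, 11 and 14 it was 79.6, 48.0 and 47.8 FPKM in Dppa2/4 and 88.9, 79.3 and 81.5 FPKM in control.

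Mybl2 had a lowest, median and highest level of 9.75, 27.0 and 435 FPKM in Dppa2/4 and of 10.0, 32.4 and 604 FPKM in control libraries, a range set by the gates. It was lower in Dppa2/4 in 9 of 13 strata, by 0.56 (SE 0.19, limma adjusted p = 0.049), and its adjusted p was 0.034 to 0.10 when each stratum was left out in turn, above 0.05 in 8 of 13 cases and 0.060 without day 4 Thy1+SSEA1-. In Thy1-SSEA1+ cells of days 8, 11 and 14 Mybl2 was 75.6, 76.3 and 78.7 FPKM in Dppa2/4 and 204, 246 and 243 FPKM in control, and in GFP+ cells of days 11 and 14 it was 435 and 378 FPKM in Dppa2/4 and 593 and 604 FPKM in control. The arms did not overlap within either gate. In the SSEA1- gates they did, at 9.75 to 31.4 FPKM in Dppa2/4 and 10.0 to 37.3 FPKM in control. The difference between these sets of gates was -0.99 for Mybl2 (SE 0.31, limma adjusted p = 0.12).

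Whether the Dppa2/4 effect differed between Thy1-SSEA1+ or GFP+ cells and the SSEA1- gates was tested by an interaction. None of the 39 genes passed by limma, 3 had an unadjusted p below 0.05 (Mybl2, Pttg1 and Espl1), and 1.02% of all genes were called, 0.511% higher and 0.505% lower (18.9% at an unadjusted p below 0.05). Without day 11 Thy1-SSEA1-, Mybl2 passed (-1.16, limma adjusted p = 0.045), where 1.64% of all genes were called. With day 4 Thy1+SSEA1- left out in both arms, none passed, the median was -0.24 (-0.07 with it), 36 of 39 were negative, 6 had an unadjusted p below 0.05, and Mybl2 stood at -1.03 (limma adjusted p = 0.11). Between days 8 to 14 and days 2 and 4, none of the 39 passed either, and 0.0238% of all genes did, 0.0178% higher and 0.00594% lower. There, 34 of 39 interaction terms were positive (median 0.62, against -0.02 over all genes) and 18 had an unadjusted p below 0.05, as did 19.1% of all genes, led by Mki67 (1.24, SE 0.30, limma adjusted p = 0.11), Cenpe (1.22) and Kif11, the spindle motor Eg5 (1.21). With day 8 Thy1-SSEA1+ left out, 6 of the 39 passed, all higher, where 3.95% of all 16770 genes tested were called. With day 4 Thy1+SSEA1- left out in both arms, none passed, the median was 0.36 and 8 had an unadjusted p below 0.05.

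**Figure D5:**
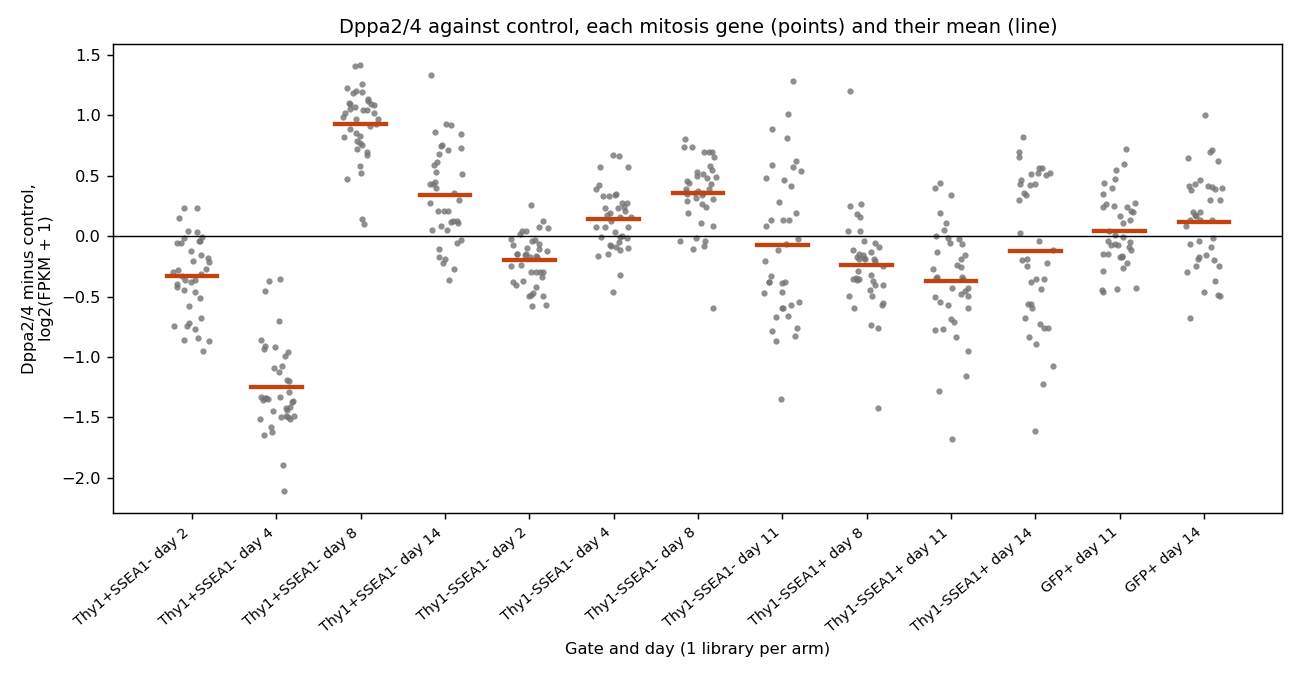
Dppa2/4 minus control in log2(FPKM + 1) (vertical axis) for each of the 39 genes (grey points) in 13 combinations of gate and day (horizontal axis), with their mean as a line. Each combination is 1 library per arm. Means run between -1.25 (day 4 Thy1+SSEA1-) and 0.93 (day 8 Thy1+SSEA1-), and are below 0 on each day in Thy1-SSEA1+ cells.

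In Thy1-SSEA1+ cells the mean difference of the 39 genes was -0.24, -0.38 and -0.12 on days 8, 11 and 14, and in GFP+ cells 0.05 and 0.12 on days 11 and 14. In Thy1-SSEA1- cells it was -0.20, 0.14, 0.36 and -0.07 on days 2, 4, 8 and 11. These are single libraries per arm, described without a test. Beside the Thy1-SSEA1+ values, epithelial markers summed to 326 to 664 FPKM in Dppa2/4 and 308 to 786 FPKM in control, and pluripotency markers to 750 to 1203 FPKM in Dppa2/4 and 1636 to 2740 FPKM in control, where all 9 reached 1 FPKM in at least 1 library. Their part in the result was not tested. Of the other lists, 4 of 18 DNA replication genes were lower with Dppa2/4 and none higher over the 13 strata (Mcm5, 49.8 and 76.5 FPKM; Mcm3, 53.3 and 80.4 FPKM), and 5 of 27 other kinetochore genes were lower (Spc24, 21.1 and 30.4 FPKM). Cdkn1a, the p21 inhibitor, was higher (318 and 254 FPKM), as was Cdkn2b (39.1 and 29.2 FPKM). Of the spindle list, Cep55 and Anln, both proteins of cytokinesis, were higher. These calls moved when day 4 Thy1+SSEA1- was left out in both arms: 0 of the DNA replication genes and 4 of the kinetochore genes were then lower, 1 inhibitor was higher and 1 lower, and 3 spindle genes were higher.

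Thy1-SSEA1- against Thy1+SSEA1- cells (7 pairs) gave no call among the 39 genes by limma, with none at an unadjusted p below 0.05, where 0.0259% of 15473 genes were called (0.0129% higher and 0.0129% lower) and 10.4% had an unadjusted p below 0.05. The median difference was 0.02, against 0.01 over all genes, and -0.24 without the pair that holds the library labelled Dppa2/4 day 4 Thy1+SSEA1-. Ccnb1 had 29.0, 63.1, 70.8 and 26.1 FPKM in Dppa2/4 Thy1-SSEA1- cells of days 2, 4, 8 and 14 and 38.8, 63.5 and 55.5 FPKM in control Thy1-SSEA1- cells of days 2, 4 and 8, against 69.8, 18.4, 58.8 and 18.0 FPKM (Dppa2/4) and 87.7, 53.7 and 28.6 FPKM (control) in Thy1+SSEA1- cells. On day 2, Ccnb1 was lower in Thy1-SSEA1- cells in both arms, as were all 39 genes, with a mean difference of -0.95 in Dppa2/4 and -1.09 in control. On later days the 39 genes went different ways, with mean differences of 1.52, 0.11 and -0.16 in Dppa2/4 on days 4, 8 and 14 and of 0.13 and 0.68 in control on days 4 and 8. The value of 1.52 uses the library whose Dppa2 was at control level.

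Thy1+SSEA1- cells are those that keep the fibroblast antigen, and in control most of the 39 genes were lower on each later day sampled. There, 38 of 39 were lower on day 4 than on day 2, all 39 on day 8 than on day 4, and 32 on day 14 than on day 8, while Cdk1, Ccnb2, Cdc25b, Bub3, Ube2c, Pttg1 and Cenpa were higher on day 14 than on day 8. Ccnb1 was 87.7, 53.7, 28.6 and 17.3 FPKM in control on days 2, 4, 8 and 14, and 69.8, 18.4, 58.8 and 18.0 FPKM in Dppa2/4. The mean over the 39 genes was 5.68, 5.11, 4.37 and 4.06 in control and 5.35, 3.85, 5.30 and 4.40 in Dppa2/4. Over all 8 libraries, with arm as a term, no gene passed by limma, 4 had an unadjusted p below 0.05 (Ccnb1, Sgol1, Bub1 and Ccna2), and 2.1% of 14742 genes were called, 1.3% higher and 0.8% lower (25.5% at an unadjusted p below 0.05). The median change was -0.09 per day, against 0.01 over all genes, and 38 of 39 were negative.

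With the Dppa2/4 library of day 4 left out, 26 of the 39 genes fell with the day, none rose and all 39 changes were negative (median -0.11 per day), where 19% of 14608 genes were called. That library had Dppa2 at the control level. Leaving out each of the other 7 in turn gave no call among the 39 by limma. Those fits called 0% to 0.0138% of all genes tested, so they had next to no calls to give. With Dppa2/4 day 4 left out, Ccna2 (cyclin A2) changed by -0.18 per day (SE 0.03, limma adjusted p = 0.012), Ccnb1 by -0.17 (SE 0.03, limma adjusted p = 0.012) and Bub1 by -0.14, and Pttg1 by -0.01, which did not pass. Of 18 DNA replication genes 14 fell, and of 22 other spindle genes 10 fell. In the same fit some markers of other cells rose with the day. These were 5 of 8 pluripotency markers (Dppa5a by 0.39 and Tdgf1 by 0.24 per day) and 2 of 5 epithelial markers (Krt18 by 0.24 and Epcam by 0.11). Of 7 macrophage and blood markers, 2 were tested and 1 rose (Cd68, by 0.15). Of 9 fibroblast markers, 2 rose (Thy1, the sort antigen of this gate, and Pdgfra). None of these marker lists had a member called lower. Pou5f1, a pluripotency marker, changed by -0.11 per day and did not pass (limma adjusted p = 0.070). Col1a2, a fibroblast marker, changed by -0.006 per day and did not pass. The part of these markers in the result was not tested. Cdkn2a and Cdkn2b each rose by 0.21 per day (limma adjusted p = 0.010 and 0.0089). In control Thy1+SSEA1- cells of days 2, 4, 8 and 14 Cdkn2a was 25.0, 34.7, 71.2 and 216 FPKM, in Dppa2/4 cells of days 2, 8 and 14 it was 21.4, 25.6 and 85.8 FPKM, and in the library left out it was 107 FPKM.

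In Thy1-SSEA1- cells (9 libraries) the levels had no steady course. The mean over the 39 genes was 4.40, 5.37, 5.40, 4.79 and 4.25 in Dppa2/4 on days 2, 4, 8, 11 and 14, and 4.59, 5.23, 5.05 and 4.86 in control on days 2, 4, 8 and 11. Both arms were higher on day 4 than on day 2. No gene passed by limma for change per day, 1 had an unadjusted p below 0.05 (Foxm1, -0.13 per day), and 2.77% of 14995 genes were called, 1.68% higher and 1.09% lower (22.9% at an unadjusted p below 0.05).

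OSKM cells of day 2 against the libraries labelled rtTA-MEF gave no call among the 39 genes by limma, 1 at an unadjusted p below 0.05 (Spc25), and 0.0483% of 14501 genes were called, 0.0345% higher and 0.0138% lower (3.74% at an unadjusted p below 0.05). The median difference was -0.58, against 0.03 over all genes, with 35 of 39 negative. Cdk1 was 268 and 159 FPKM in Dppa2/4 and 360 and 152 FPKM in control OSKM cells (Thy1+SSEA1- and Thy1-SSEA1-), against 272 FPKM in Dppa2/4 and 429 FPKM in control rtTA-MEFs. Thy1-SSEA1- values of Cdk1 lay below the rtTA-MEF values, and each Thy1+SSEA1- value of Cdk1 lay below the rtTA-MEF value of its arm. The mean over the 39 genes did not follow this in control Thy1+SSEA1- cells, at 5.68 against 5.55 in control rtTA-MEFs. In Dppa2/4 it was 5.35 in Thy1+SSEA1- cells against 5.43 in rtTA-MEFs. Thy1-SSEA1- cells stood lower, at 4.40 in Dppa2/4 and 4.59 in control. The rtTA-MEF libraries carry no OSKM cassette by their genotype, yet Pou5f1 was 1116 FPKM in Dppa2/4 and 122 FPKM in control rtTA-MEFs, and their descriptions give day 1 of OSKM-rtTA cells, so the comparison is of libraries as labelled.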

How the data were processed

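The authors deposited FPKM per gene, and the submitters' processing notes name TopHat2, Cuffdiff and the build mm10. Versions, annotation and strand use are not given in the sources used here, so antisense overlap was not resolved. Of 33 value columns 32 were used, since the column named for Dppa2/4 day 11 Thy1+SSEA1- matched no sample, while the sample titled control day 11 Thy1+SSEA1- matched no column; the arm names conflict and neither was used, and the 2 rtTA-MEF columns were assigned by elimination. Depth was implied from the value that 1 fragment gives in 2001 genes with a single transcript. Genes were joined to GENCODE vM21 by identifier. Differences were fitted on log2(FPKM + 1) with limma 3.58.1 (R 4.3.3; eBayes with trend) over genes of at least 1 FPKM in at least 2 libraries, with day and gate, or arm and day, as a block, and arm as a term for change per day. P-values are two-sided and adjusted by Benjamini-Hochberg over all genes tested, with a threshold of 0.05, and each fit was tested on simulated data. The 39 genes and all lists were chosen with earlier results of these data known. Any of the 39 genes could be named, with up to 12 called per comparison chosen by the size of the change. Of each other list, up to 2 called genes with the largest change were named, and by correlation the 5 highest and 5 lowest genes. Which genes have values in every library was decided after the values were seen. Other settings tried were 0.1 as pseudocount, all genes kept, a mean cutoff of 5 FPKM, quantile-normalized values, a fit with no trend or no block, and libraries left out.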

Additional observations from a re-analysis of the deposited data

Results flagged for a closer look

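Among 160 sets of 4 or 5 libraries of the same arm and gate (39 genes and their mean in 4 sets), 1 library stood apart by the ratio of its gap to the range, and chance alone flags about 1 in 20 sets. Bub1 was 22.4 FPKM in control Thy1-SSEA1- cells of day 4, against 14.1 to 14.9 FPKM in the other 3 control libraries of that gate, with a gap of 0.892 of the range on the log2 scale.

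The mean of the 39 genes was lower in Dppa2/4 than in control in all 3 Thy1-SSEA1+ strata (-0.24 on average) and higher in both GFP+ strata (0.08 on average), a gap of 0.326 between the gates. On day 11 of GFP+ the mean difference was only 0.046, with 19 genes higher and 20 lower. The control library of that stratum is the one described in GEO as GFP-negative. The gap between the gates was not tested.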

How the results depend on the processing

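A pseudocount of 0.1 and a filter at a mean of 5 FPKM kept each count of called members within 1.5 times. For Dppa2/4 against control, 1 gene was lower with no filter (14.2% of all genes called), with quantile normalization (24.2%) and with no variance trend (23.2%). The count was also 1 without the control library titled day 11 GFP+ (21%), and 0 with no block, where only 4.78% of all genes were called. With the Dppa2/4 library of day 4 Thy1+SSEA1- left out, 2 were higher and 1 lower, where 25.1% of all genes were called. Leaving out each stratum gave 0 to 2 higher and 1 to 3 lower, where 17.8% to 25.1% of all genes were called. The interaction by gate gave 0 to 1 lower, with 1 without day 11 Thy1-SSEA1- (1.64% of all genes called). That by day gave 0 to 6 higher, with 6 without day 8 Thy1-SSEA1+ (3.95% of all genes called). In Thy1-SSEA1+ cells set against Thy1-SSEA1- cells, leaving out a pair gave 22 to 33 higher, where 8.37% to 22.3% of all genes were called. Against Thy1+SSEA1- cells it gave 13 to 37 higher (6.9% to 22.6% of all genes called), and no filter gave 0 (0% of all genes called). For GFP+ cells, 19 to 26 were higher without a pair (30.4% to 42.2% of all genes called) and 17 with no block (26.1%). By day in Thy1+SSEA1- cells, 0 to 26 were lower without a library, with 26 when Dppa2/4 day 4 was left out (19% of all genes called). Leaving out any other library of that gate called 0% to 0.0138% of all genes. The causes were not tested. Of the members named, 3 that did not pass changed direction: Ccnb1 in Thy1-SSEA1- against Thy1+SSEA1- cells (0.183; -0.073 with Dppa2/4 day 4 left out, -0.073 to 0.42 over all pairs left out), Cdc20 in GFP+ cells (0.105; -0.012 with quantile normalization) and Pttg1 by day in Thy1+SSEA1- cells (0.009; -0.009 with Dppa2/4 day 4 left out, -0.018 to 0.035 over all libraries left out). With 1 library per arm, day and gate, single strata have no error of their own. The labels give no replicate numbers; pairs are libraries of the same arm and day, or of the same day and gate, and no block by replicate number could be fitted.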
